A study of Mus musculus with 8 samples.

Results

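The genes described here encode scavenger receptors, cell surface and lysosomal proteins of which several take up oxidised, acetylated or otherwise modified lipoproteins. They were the 10 mouse genes of a supplied list, Cd36, Olr1, Msr1, Scarb1, Scarb2, Cd68, Marco, Colec12, Stab1 and Scara3. Each was found by its Entrez identifier on 1 probe set, so that all 10 were measured among the 24704 genes of the arrays. Expression had been profiled in smooth muscle cells of the mouse aorta on 8 Affymetrix arrays of 1 colour. The cells had been grown in serum-containing medium, infected with an adenovirus for 24 h and then loaded with cholesterol at 10 µg/ml for 72 h. On 4 arrays the virus was titled AdPl, and the genotype field reads Control. On the other 4 arrays it was titled AdN5, and the genotype field reads NFAT5 overexpression. No array of uninfected cells or of cells without cholesterol was analysed here, so the values compare both viruses under cholesterol loading and do not show what cholesterol did. The labels do not name the mouse strain, the promoter of the transgene or whether replicates came from separate cultures, so the p-values measure only the spread between these arrays, which may be technical.

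Scavenger receptors differ from the low-density lipoprotein receptor in that their expression is not shut down by the cholesterol they bring in, which is how macrophages and smooth muscle cells of an atherosclerotic wall fill with lipid droplets and become foam cells. The family is grouped by structure rather than by descent. Class A receptors (Msr1, Marco, Colec12 and Scara3) carry a collagen-like stalk, class B receptors (Cd36, Scarb1 and Scarb2) cross the membrane at both ends, and Olr1, Cd68 and Stab1 each stand for a further class. Several of these genes are classical macrophage genes, and NFAT5, which drives the transcriptional answer to hypertonic stress, is also active in macrophages.

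Promoter sequences are shown for the called genes that the RefSeq table of the assembly GRCm38.p6 holds, because these genes were higher in the same arrays. They cover the 250 bases before the annotated start of the gene, written 5′ to 3′ on the strand of the gene, which was the minus strand in all of them. The windows lie at chr5:17835897-17836146 for Cd36, at chr6:129507166-129507415 for Olr1 and at chr11:69666171-69666420 for Cd68. Cd36 is known to use several alternative first exons, and the window belongs to 1 annotated start. Capitals mark matches, on either strand, to TGAGTCA (the AP-1 element), GAGGAA (the core bound by PU.1, a transcription factor of macrophages) or TGGAAA (the core bound by NFAT proteins).
Cd36: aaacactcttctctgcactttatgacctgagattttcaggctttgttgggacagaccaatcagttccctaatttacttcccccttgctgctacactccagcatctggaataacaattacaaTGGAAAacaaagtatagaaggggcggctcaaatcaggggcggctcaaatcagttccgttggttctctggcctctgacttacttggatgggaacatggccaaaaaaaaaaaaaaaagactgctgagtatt
Olr1: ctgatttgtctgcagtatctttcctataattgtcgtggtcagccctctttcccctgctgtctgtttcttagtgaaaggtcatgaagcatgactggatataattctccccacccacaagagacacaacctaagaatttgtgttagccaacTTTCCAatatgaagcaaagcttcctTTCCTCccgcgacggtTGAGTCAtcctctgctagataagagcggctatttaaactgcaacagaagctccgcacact
Cd68: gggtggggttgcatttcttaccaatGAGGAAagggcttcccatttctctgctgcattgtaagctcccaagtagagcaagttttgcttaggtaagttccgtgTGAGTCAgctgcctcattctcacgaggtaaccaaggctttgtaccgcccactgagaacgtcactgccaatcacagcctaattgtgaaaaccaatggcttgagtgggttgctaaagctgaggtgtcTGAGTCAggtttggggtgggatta

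The AP-1 element occurred once in the Olr1 window, 60 to 54 bases before the start. It occurred at 2 places in the Cd68 window, 149 to 143 and 24 to 18 bases before the start. Of all 32851 promoter windows of this length 4.46% held the element, and so did 2 of the 6 member windows in the table. The GAGGAA core was found in the windows of Olr1, Cd68, Marco and Stab1, and in 23.3% of all windows. The TGGAAA core was found in those of Cd36 and Olr1, and in 18.6% of all windows. The longer tonicity-responsive element of NFAT5, which begins with the same TGGAAA core, matched 0 of the 6 member windows and 4.31% of all windows. Msr1, Scarb1, Colec12 and Scara3 are not in the table. A match says only that these letters occur in this window.

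The Nfat5 transcript, the check of the labels, was not raised where the labels give NFAT5 overexpression. Its log2 level averaged 6.97 ± 0.072 (SD, n = 4) in these arrays and 7.16 ± 0.089 (SD, n = 4) in the control arrays, a log2 fold change of -0.19 ± 0.078 (SE) with a limma adjusted p of 0.360. The transcript thus goes against the label. Whether the probe set reads the transgene cannot be told, since the sources used here give neither sequence. The groups are therefore called NFAT5-labelled and control, and every direction is drawn from the labels. The first principal component held 22% of the variance, with all control arrays below 0 and all NFAT5-labelled arrays above it. On the second, which held 17.1%, control replicate 3 (14.2) and NFAT5-labelled replicate 4 (24.7) stood apart from the other arrays (-19.5 to 0.337). NFAT5-labelled replicate 3 lay at the opposite end (-19.5), farther from 0 than control replicate 3. Of the 10 smooth muscle markers, 8 lay above the median gene of every array. The smooth muscle actin gene Acta2 stood at 12.04 ± 0.021 in the control arrays and at 11.74 ± 0.079 (SD, n = 4) in the NFAT5-labelled arrays. Its groups did not overlap, and its log2 fold change of -0.30 had a limma adjusted p of 0.113. With 4 arrays in each group, a typical gene had a standard error of 0.11 (median) on its log2 fold change.

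Cd36, Olr1, Cd68 and Colec12 were higher in the NFAT5-labelled arrays, and the other 6 receptor genes did not pass the test. The threshold was an adjusted p of 0.05 in limma, by the Benjamini-Hochberg method across the 24704 genes. By this rule 4 of the 10 members rose and 0 fell. Over all genes 0.777% were called in either direction and 0.364% as higher. Before adjustment 6 members were higher and 0 lower at a p under 0.05, a threshold that 12.5% of all genes passed in either direction (3097 of 24704). The fold change was above 0 for 9 of the 10 members, as it was for 51.0% of all genes. The groups did not overlap, with every NFAT5-labelled array above every control array, for 5 members, and this held for 4.22% of all genes. The median log2 fold change of the members was 0.44, beside 0.0042 for all genes. The list was put together with results of these data known, so these counts describe the members and do not test the family. All 10 members lay above the median gene (3.75) on all 8 arrays, Stab1 by the least. No background or detection value was analysed here.

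**Figure D1:**
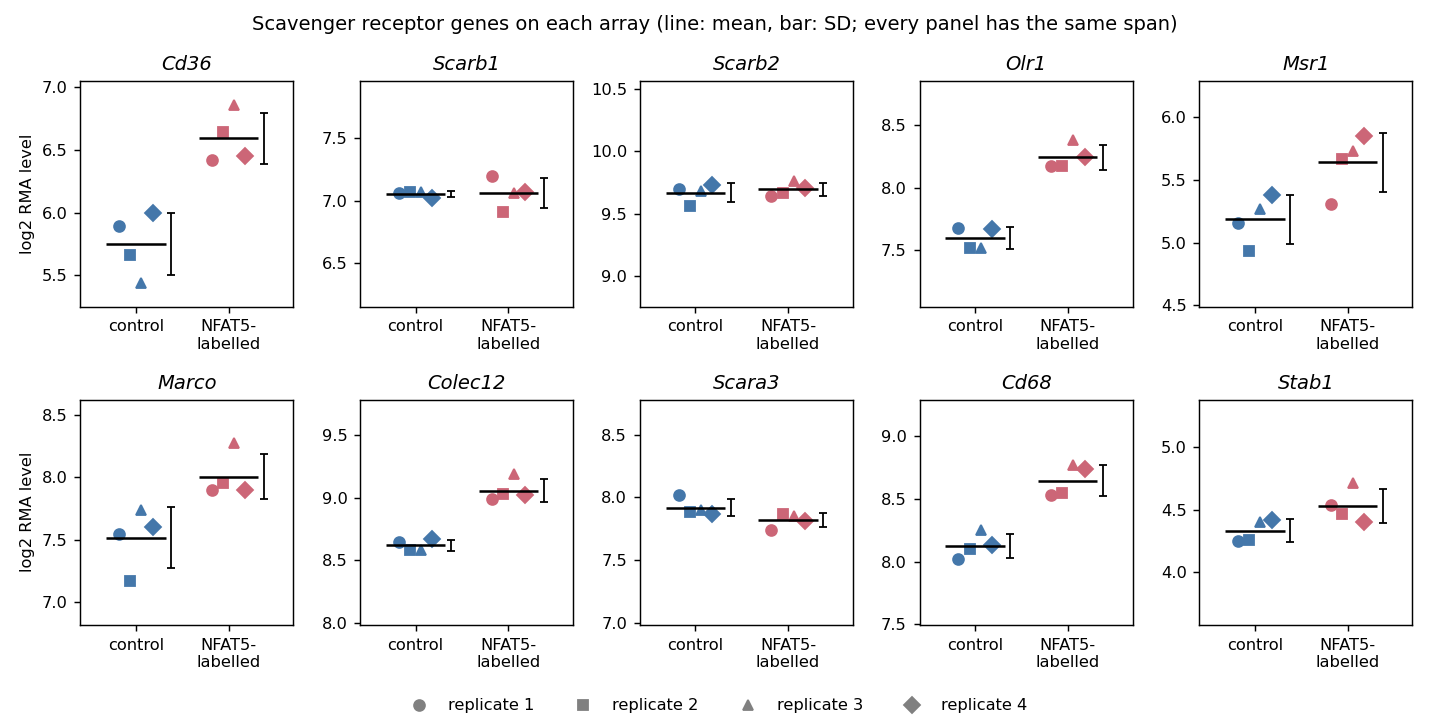
Log2 RMA level (vertical axis, each panel spanning the same number of log2 units) of the 10 scavenger receptor genes on the 4 control arrays (blue) and the 4 NFAT5-labelled arrays (red). Symbols give the replicate number, lines the group mean and bars the SD. The groups are apart for Cd36, Olr1, Cd68, Marco and Colec12 and overlap or meet for Msr1, Scarb1, Scarb2, Stab1 and Scara3.

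Among the class B receptors Cd36 was higher and Scarb1 and Scarb2 differed little. CD36 binds oxidised low-density lipoprotein, long-chain fatty acids and thrombospondin and is a main route by which macrophages take up oxidised lipoprotein. The log2 level of Cd36 was 5.89, 5.66, 5.44 and 6.0 in control replicates 1 to 4 and 6.42, 6.64, 6.86 and 6.45 in NFAT5-labelled replicates 1 to 4. The lowest NFAT5-labelled array lay 0.43 above the highest control array, and the control arrays were themselves spread over 0.25 (SD, n = 4). The log2 fold change was 0.85 ± 0.14 (SE), or 1.80-fold with a 95% interval from 1.45 to 2.24 (limma adjusted p = 0.0313).

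SCARB1 is the receptor for high-density lipoprotein and takes up its cholesteryl esters without degrading the particle. Scarb1 was at 7.06, 7.07, 7.07 and 7.02 in the control arrays and at 7.20, 6.91, 7.06 and 7.07 in the NFAT5-labelled arrays. The NFAT5-labelled arrays lay on both sides of the control arrays, and their SD (0.116) exceeded that of the control arrays (0.0255). The 95% interval of the log2 fold change ran from -0.17 to 0.19 around 0.0088, so that a change beyond 1.14-fold in either direction lay outside it. SCARB2, also called LIMP-2, is a lysosomal membrane protein that carries glucocerebrosidase to the lysosome. Scarb2 spanned 9.56 to 9.73 in the control arrays and 9.64 to 9.76 in the NFAT5-labelled arrays, with a log2 fold change of 0.028 and a 95% interval from -0.14 to 0.19. For neither gene did the arrays separate by group.

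Olr1 encodes LOX-1, a lectin-like receptor for oxidised low-density lipoprotein that endothelial cells, macrophages and smooth muscle cells can make. Its log2 level was 7.68, 7.52, 7.52 and 7.67 in control replicates 1 to 4 and 8.17, 8.17, 8.38 and 8.24 in NFAT5-labelled replicates 1 to 4. The groups were 0.48 apart at their nearest arrays, the widest gap among the members. The log2 fold change was 0.64 ± 0.083 (SE), or 1.56-fold with a 95% interval from 1.37 to 1.78 (limma adjusted p = 0.0110). Of the 4 called members, Olr1 alone kept its call without any single array (adjusted p 0.0287 to 0.0478 in 8 fits).

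The class A receptors fell on both sides of the threshold. Colec12, which encodes a collectin-type receptor that binds sugars, microbes and oxidised low-density lipoprotein, was at 8.65, 8.58, 8.58 and 8.67 in the control arrays and at 8.99, 9.03, 9.19 and 9.02 in the NFAT5-labelled arrays. Its control arrays were the tightest after those of Scarb1 (SD 0.0497), and the groups were 0.31 apart. The log2 fold change was 0.43 ± 0.076 (SE), or 1.35-fold, with a limma adjusted p of 0.0380.

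Marco, a receptor for bacteria, particles and acetylated lipoprotein, was at 7.55, 7.17, 7.74 and 7.60 in the control arrays and at 7.90, 7.95, 8.27 and 7.90 in the NFAT5-labelled arrays. The groups were 0.16 apart, with control replicate 2 low and NFAT5-labelled replicate 3 high within their groups. The log2 fold change of Marco was larger than that of Colec12 at 0.49, but its standard error was larger too (0.14), and it did not pass (limma adjusted p = 0.172). Msr1, the founding class A receptor and a main route for acetylated lipoprotein in macrophages, spanned 4.93 to 5.38 in the control arrays and 5.31 to 5.85 in the NFAT5-labelled arrays. NFAT5-labelled replicate 1, at 5.31, lay below control replicate 4, at 5.38, and the other NFAT5-labelled arrays lay above all control arrays. The log2 fold change of Msr1 was 0.45, with a 95% interval from 0.15 to 0.76 and a limma adjusted p of 0.200. Intervals that exclude 0 for Marco and Msr1 are not corrected for the number of genes tested.

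Scara3 encodes a class A protein that is known for guarding cells from oxidative damage rather than for lipoprotein uptake. It was the only member with a fold change below 0, at -0.098 with a 95% interval from -0.26 to 0.065 (limma adjusted p = 0.645). Its levels were 7.87 to 8.02 in the control arrays and 7.74 to 7.87 in the NFAT5-labelled arrays, so that the groups met at their edges.

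Cd68 encodes macrosialin, a heavily glycosylated endosomal and lysosomal protein that is used as a macrophage marker and also appears on lipid-loaded smooth muscle cells. Its log2 level was 8.02, 8.10, 8.25 and 8.13 in control replicates 1 to 4 and 8.53, 8.55, 8.77 and 8.74 in NFAT5-labelled replicates 1 to 4. The groups were 0.29 apart. The log2 fold change was 0.52 ± 0.088 (SE), or 1.44-fold with a 95% interval from 1.25 to 1.65 (limma adjusted p = 0.0334). Stab1 encodes stabilin-1, an endocytic receptor of sinusoidal endothelium and of some macrophages. It was the member nearest to the median gene, at 4.25 to 4.42 in the control arrays and 4.40 to 4.71 in the NFAT5-labelled arrays. These ranges overlapped, and the log2 fold change of 0.20 had a 95% interval from -0.0049 to 0.40 (limma adjusted p = 0.412).

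**Figure D2:**
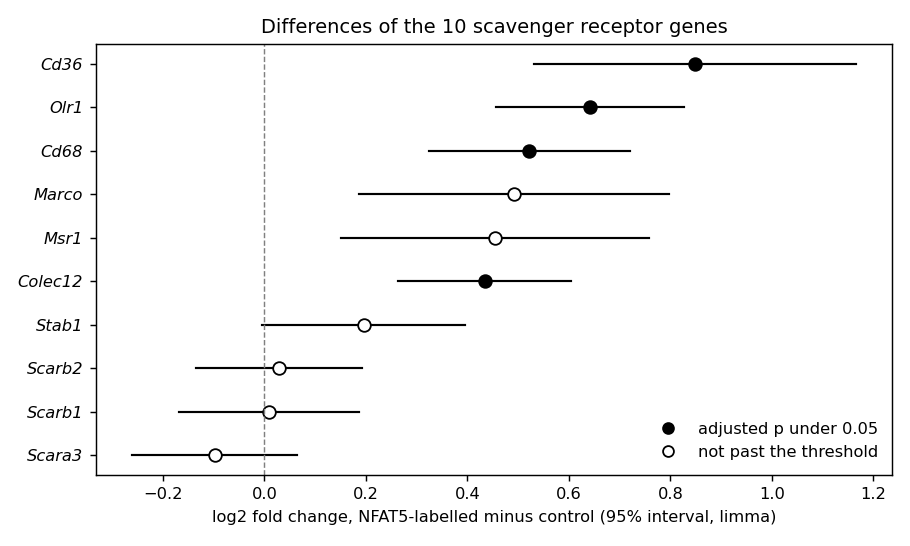
Log2 fold change (horizontal axis, NFAT5-labelled minus control) of each scavenger receptor gene with its 95% interval from limma. Filled circles are the 4 genes past an adjusted p of 0.05. Scarb1 (0.0088), Scarb2 (0.028) and Scara3 (-0.098) lie closest to 0.

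Reassigning the arrays to the groups in all 70 ways (exact permutation test, two-sided) gave 0.0286, the smallest value it can give, for each of the 5 members whose groups did not overlap. It gave 0.0571 for Msr1 and Scara3, 0.0857 for Stab1, 0.600 for Scarb2 and 0.857 for Scarb1. Within the NFAT5-labelled group the same array was often the highest, since replicate 3 led for 7 of the 10 members and replicate 1 was lowest for 7 of them. No control array led for more than 5 members.

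The calls of Cd36, Cd68 and Colec12 rested on the full set of arrays. Without any 1 array each of them missed the threshold in all 8 fits, with limma adjusted p from 0.0548 to 0.102 for Cd36, from 0.0595 to 0.113 for Cd68 and from 0.0778 to 0.113 for Colec12. The log2 fold changes in those fits stayed between 0.75 and 0.93 for Cd36, 0.48 and 0.56 for Cd68 and 0.39 and 0.46 for Colec12. Without control replicate 3 and NFAT5-labelled replicate 4, the arrays that stood apart, 0 of the 10 members were called, with a log2 fold change of 0.79 for Cd36 (adjusted p = 0.125) and of 0.62 for Olr1 (0.103). The fits with fewer arrays also had fewer calls among all genes, 56 to 88 without 1 array and 30 without both, beside 192.

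**Figure D3:**
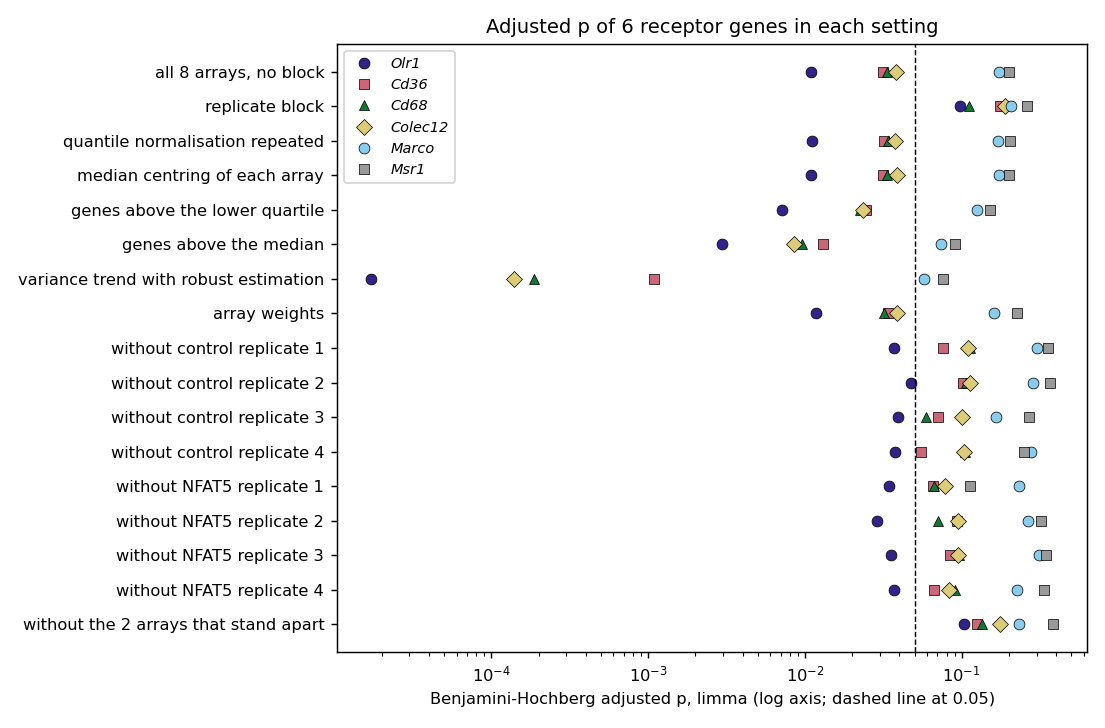
Benjamini-Hochberg adjusted p from limma (horizontal log axis, dashed line at 0.05) of 6 receptor genes under each processing setting (vertical axis). Olr1 is left of the line in every setting but the replicate block and the fit without the arrays that stood apart, and Marco and Msr1 are right of it in all.

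Several receptors are macrophage genes, and macrophage markers were mostly higher in the same arrays. Of 16 measured macrophage markers, members left out, 15 had a fold change above 0, and 2 rose in limma (8 higher and 0 lower at a p under 0.05 before adjustment, which 12.5% of all genes passed). These were Adgre1, which encodes the antigen F4/80 (0.68 ± 0.083 SE), and Laptm5, which encodes a lysosomal protein of blood cells (0.53 ± 0.086 SE). Adgre1 was called in 8 of 8 fits without 1 array and Laptm5 in 1 of 8 (adjusted p up to 0.0916). Without both arrays that stood apart 0 of the 16 markers were called. The median log2 fold change of the list was 0.27. Its mean level ran from 5.48 to 5.67 in the control arrays and from 5.80 to 5.98 in the NFAT5-labelled arrays, without overlap. On every array 14 of the 16 lay above the median gene, Ptprc and Aif1 being the exceptions. Over the 10 fibroblast or adventitial markers the median was -0.18, and 0 were higher and 5 lower at a p under 0.05 before adjustment. After adjustment 1 gene fell (Ly6c1, -1.25, called in 1 of 8 fits without 1 array). Ly6c1 lay at 3.80 to 4.35 in the control arrays and at 2.15 to 3.32 in the NFAT5-labelled arrays. It was the only marker of this list that did not lie above the median gene on every array, and it is part of the list mean. That mean ran from 7.32 to 7.43 in the control arrays and from 6.96 to 7.15 in the NFAT5-labelled arrays. In the 10 smooth muscle markers 0 were called, and the median was 0.020. Before adjustment 1 was higher (Cnn1, 0.33) and 1 lower (Acta2, -0.30) at a p under 0.05. The 10 endothelial markers had a median of 0.016 with 0 called and 1 higher and 1 lower at a p under 0.05 before adjustment. Of 7 adipocyte markers 0 were called (0 higher and 2 lower at a p under 0.05 before adjustment), and of 6 lymphocyte markers 0 were called on either count. Only 1 of the adipocyte and 0 of the lymphocyte markers lay above the median gene of every array. The part of macrophage or fibroblast RNA in the differences of the receptors was not tested. In RNA of whole cultures, more cells of a type and more RNA of a gene per cell cannot be told apart.

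**Figure D4:**
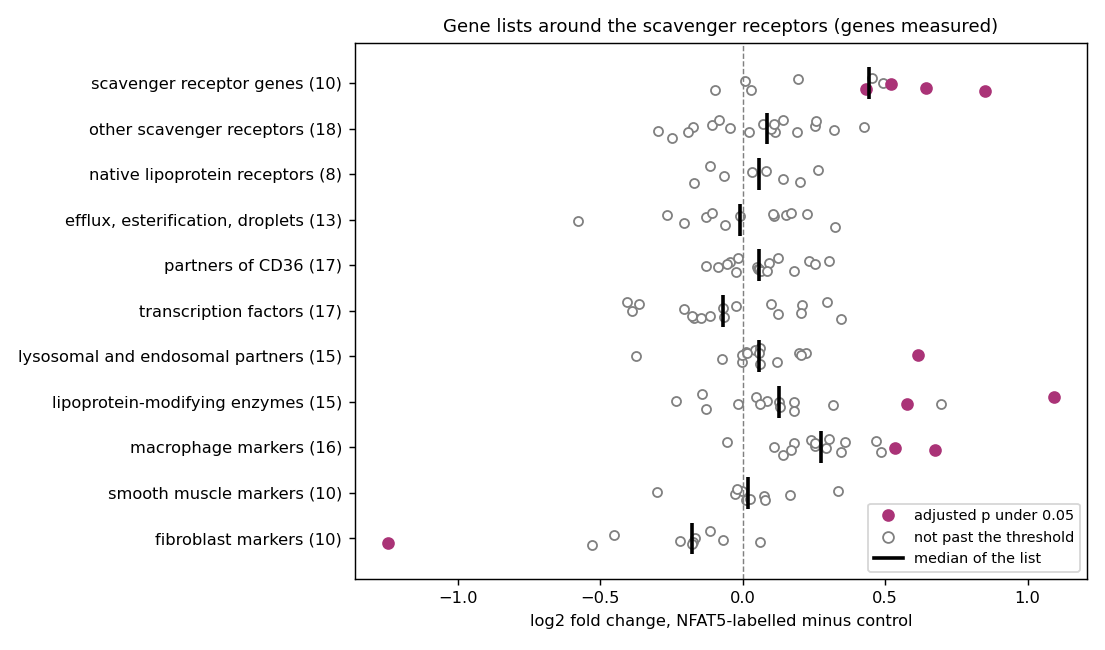
Log2 fold change (horizontal axis, NFAT5-labelled minus control) of every measured gene in the lists around the scavenger receptors, with the number measured in parentheses. Filled circles passed an adjusted p of 0.05 in limma, open circles did not, and bars are list medians. The receptor list has its median at 0.44 and the macrophage markers at 0.27.

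The other scavenger receptors did not share a change that passed the test. Of 18 genes, among them the stabilin gene Stab2, the haemoglobin receptor Cd163, the mannose receptor Mrc1 and the scavenger and endocytic receptor Lrp1, 0 were called in limma (5 higher and 2 lower at a p under 0.05 before adjustment, beside 12.5% of all genes here and in the lists that follow), and their median was 0.085. The ends were Clec7a, the receptor for fungal glucans, at 0.43 (adjusted p = 0.236) and Scara5, a ferritin receptor, at -0.30 (0.395). Cxcl16, a chemokine whose membrane form takes up oxidised lipoprotein, was at 0.32 (0.160), and was singled out after its value was seen. In 8 of the 18 genes the level fell to the median gene or below on at least 1 array, Stab2 and Cd163 among them, where small differences are compressed by RMA. Receptors for native lipoproteins and their regulators gave 0 calls among 8 measured genes (2 higher and 0 lower at a p under 0.05 before adjustment), with a median of 0.057. Their ends were Lrp8, the apolipoprotein E receptor of the brain, at 0.27 and Vldlr, the receptor for very-low-density lipoprotein, at -0.17.

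The measured genes that handle cholesterol once it has been taken up did not pass the test. Of 13 measured genes from a list of efflux, esterification and lipid droplet genes 0 were called in limma, and the median was -0.010. At a p under 0.05 before adjustment 2 were higher and 2 lower. Soat1 and Soat2, the esterifying enzymes of the list, were not among the 13, so esterification itself was not measured. Cyp27a1, the sterol 27-hydroxylase, was at 0.33 (adjusted p = 0.271). Lpl, the lipoprotein lipase, was at -0.58 ± 0.12 (SE), with levels of 7.26, 7.08, 7.08 and 7.29 in the control arrays and 6.38, 6.61, 6.91 and 6.49 in the NFAT5-labelled arrays. Its groups did not overlap, but its adjusted p was 0.0726. It passed without NFAT5-labelled replicate 3 (0.0358), among genes above the median (0.0262) and with robust estimation and a variance trend (0.00398). The exporters Abca1 (-0.21) and Abcg1 (0.15) and the lipid droplet coat gene Plin2 (0.23) are given for orientation and did not pass.

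Partners of CD36 in binding and signalling gave 0 calls among 17 genes (3 higher and 0 lower at a p under 0.05 before adjustment), with a median of 0.057. Fcer1g, the signalling chain that CD36 shares with Fc receptors, was at 0.30 and Tlr4, a receptor for bacterial lipopolysaccharide, at -0.13. Among 17 transcription factors known to act on scavenger receptor genes 0 were called (3 higher and 5 lower at a p under 0.05 before adjustment), and the median was -0.070. Spi1, which encodes PU.1, lay at the upper end at 0.34 (adjusted p = 0.309). Nr1h3, which encodes the oxysterol receptor LXR-alpha, lay at the lower end at -0.41 (0.223). Ets2 came nearest to the threshold, at -0.39 (adjusted p = 0.0728). Pparg, the nuclear receptor best known for inducing Cd36, was at -0.36 with an adjusted p of 0.184, and its level was close to the median gene, at 3.74 to 4.06 in the control arrays.

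Calls did occur among the genes that modify lipoproteins and in the lysosome. Of 15 enzymes that oxidise or modify lipoproteins 2 rose, 0 fell and 13 did not pass, with a median of 0.13. Before adjustment 4 were higher and 1 lower at a p under 0.05. Over all genes 0.777% were called in either direction, and 12.5% passed before adjustment. Nos2, the inducible nitric oxide synthase, was at 8.57, 8.28, 8.43 and 8.41 in the control arrays and at 9.58, 9.35, 9.60 and 9.53 in the NFAT5-labelled arrays, a log2 fold change of 1.09 ± 0.092 (SE; limma adjusted p = 0.00117). The call of Nos2 held in 8 of 8 fits without 1 array and in 8 of 8 other settings. Cybb, the catalytic subunit of the phagocyte NADPH oxidase, rose by 0.57 ± 0.088 (SE, limma adjusted p = 0.0243). Its call held in 1 of 8 fits without 1 array (adjusted p up to 0.0849). It was lost with the replicate block (0.0946) and without both arrays that stood apart (0.143). Pla2g7 had a larger fold change than Cybb, at 0.70, but did not pass (adjusted p = 0.0880). Mpo, the myeloperoxidase gene, was the lowest at -0.23. Of 15 lysosomal and endosomal partners of LIMP-2 and macrosialin 1 rose and 0 fell, with a median of 0.057. The gene that rose was Ctss, cathepsin S, a protease of antigen-presenting cells (0.61 ± 0.10 SE, limma adjusted p = 0.0288). It was again called in 1 of 8 fits without 1 array (up to 0.104). With the replicate block (0.115) and without both arrays that stood apart (0.103) it was not called. Before adjustment 4 of the 15 lysosomal and endosomal partners were higher and 1 lower at a p under 0.05. Tfeb, a transcription factor of lysosomal genes, was the lowest at -0.37 (adjusted p = 0.0918). The lysosomal membrane genes Lamp1 (0.043) and Lamp2 (0.061) were near 0, as was Scarb2.

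The genes whose levels followed each called receptor most closely were sought over all 8 arrays among 11123 named genes above the median gene. Olr1 and Colec12 were each other's closest gene, with a Pearson r of 0.994 and a Spearman rho of 0.898 over 8 arrays. Olr1 was followed by Fosl1, an AP-1 subunit (r = 0.988), and Mtfr1 (0.988), and Colec12 by Mpeg1, a pore-forming protein of macrophages (0.984), and the dicarboxylate transporter Slc13a3 (0.984). Nearest to Cd68 were Tnf (0.982), Adgre1 (0.980) and Mrgpre (0.980). Nearest to Cd36 were Extl3 (0.988), Adam9 (0.982) and Ywhab (0.980). These values have no test. The arrays of each group share their difference from the other group, and the closest gene of a typical gene in this set reached 0.967.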

How the data were processed

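Levels are the deposited log2 values, which, per the submitters' processing notes, the authors obtained by RMA. It corrects the background, quantile normalises the arrays and summarises each probe set. Sorted values matched within 1e-06 on 7 arrays and within 0.00183 on NFAT5 replicate 1, so a shift of all genes could not be seen, and differences of dim genes are compressed. The sources used here give neither genome build nor probe positions. Of 25428 probe sets 24705 had 1 symbol, 0 had several and 723 had none. The brightest was kept for the 1 repeated symbol. Names came from the platform annotation, and 24673 Entrez identifiers matched RefSeq (GRCm38.p6) with 0 symbols changed.

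Groups and replicate numbers came from the titles. limma 3.58.1 in R 4.3.3 (lmFit, eBayes, two-sided, no covariates or dim filter) was fitted to all 24704 genes on 8 arrays. The code was checked on simulated data with independent noise and changes larger than those of the called receptors. That check does not show how well changes as small as theirs are found. Errors are SE of fold changes or SD of means. Alternatives were the replicate block, repeated quantile normalisation, median centring, 2 filters on dim genes, robust estimation with a variance trend, weights for arrays, leaving out each array and, chosen after seeing the data, leaving out both arrays that stood apart.

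The members, gene lists and marker lists were chosen with earlier results of these data known. Some genes are in several lists, so the counts of the lists are not separate observations. Fcer1g, Spi1 and Cd14 are also macrophage markers, Pparg and Fabp4 are also adipocyte markers, and Jun is both a partner of CD36 and a transcription factor. Named genes are the 10 members, Nfat5, every called gene and both ends of each pathway list, and the 3 closest genes of each called member. Further genes named in the text were chosen after their values were seen. List entries not measured were not analysed here. Promoters came from RefSeq, with 6 of 10 members matched. Python 3.11.15 and matplotlib 3.10.9 drew the figures.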

Additional observations from a re-analysis of the deposited data

Results flagged for a closer look

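Marco on NFAT5-labelled replicate 3, at 8.27, lay far from the other arrays of its group, which were at 7.90 to 7.95 (gap of 0.875 of the range). It was 1 of 22 sets of 4 arrays examined in this way, and chance alone marks about 5% of such sets.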

How the results depend on the processing

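Repeated quantile normalisation, median centring, both filters on dim genes, the variance trend and array weights each kept 4 receptor genes called. The count fell to 0 with the replicate block, to 1 without any single array (1 to 1) and to 0 without both arrays that stood apart. Over all genes 192 calls became 14 with the replicate block, 781 with robust estimation and a variance trend, 497 when only the brighter part of the genes (above the median) was tested, 56 to 88 without 1 array and 30 without both arrays that stood apart. The replicate block left fewer residual degrees of freedom, and the fits without 1 or both arrays had fewer arrays. Whether this accounts for the lost calls was not tested. The labels do not say whether the replicate numbers pair the arrays. Deviations from the group means correlated at -0.0795 to 0.0547 between arrays of the same number and at -0.0701 to 0.148 between others. The highest value joined control replicate 3 and NFAT5-labelled replicate 4, the arrays that stood apart. So few pairs cannot decide whether the numbers pair arrays, and the replicate block is given as an alternative. With it the adjusted p was 0.176 for Cd36, 0.0980 for Olr1, 0.111 for Cd68 and 0.188 for Colec12, at the same fold changes. The sign of a fold change turned in 3 of 160 refits of the members, all near 0. Leaving out 1 array moved Scarb1 between -0.0369 and 0.0578 and Scarb2 between -0.00749 and 0.0492. Scarb1 went to -0.00353 without control replicate 4 and to -0.0369 without NFAT5-labelled replicate 1, and Scarb2 to -0.00749 without control replicate 2. Robust estimation with a variance trend raised the calls from 0 to 1 among other scavenger receptors, 2 among efflux genes, 3 among partners of CD36 and 2 among transcription factors, and also from 1 to 5 among lysosomal genes, from 2 to 4 among modifying enzymes and macrophage markers, from 1 to 4 among fibroblast markers and from 0 to 1 among smooth muscle markers. Testing genes above the median gave 4 macrophage markers, 4 modifying enzymes, 1 smooth muscle marker, 1 efflux gene and 1 transcription factor. Testing genes above the lower quartile gave 3 macrophage markers and 1 transcription factor. The replicate block gave 0 macrophage markers, 0 fibroblast markers, 0 lysosomal genes and 1 modifying enzyme. In 125 refits direction and status were kept, and these include refits of the 6 members that had no call to lose. In 32 the call was lost, all among the 4 called members. Olr1 kept its call in 8 of 8 fits without 1 array and in 6 of 8 other settings. Cd36, Cd68 and Colec12 each kept theirs in 0 of 8 fits without 1 array and in 6 of 8 other settings. The number of arrays limits the precision.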
